A study of Mus musculus with 140 samples.

Results

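Liver RNA of wild-type (WT) mice was compared across one 4-hour step of the subjective night. Circadian time (CT) counts the hours from the start of the first subjective day in constant darkness. The 8 libraries of the late samples, CT20 and its counterpart 24 hours later, CT44, were set against the 8 libraries of the early samples, CT16 and CT40. They are 16 of the 140 libraries of the series and 16 of its 48 WT libraries. The question was which genes switch on or off between CT16 and CT20, and whether the same genes do so on both days and in mice without a working clock. All mice were 3 months old, were kept under a 12-hour light and 12-hour dark cycle for at least 2 weeks and then in constant darkness, and fed ad libitum. The WT mice were male C57BL/6 animals and carried no clock mutation. At the same times of day the series holds 15 libraries of Per1,2-/- mice, which lack the clock repressors PER1 and PER2, and 14 of Bmal1-/- mice, which lack the clock activator BMAL1 (gene symbol Arntl). All knockout mice were 3-month-old males too, and both mutations are carried by the whole animal, so an effect within the liver and one from the rest of the body cannot be told apart. The assay was bulk MARS-seq, a 3′-end method with molecular barcodes, in which every count stands for 1 barcoded RNA molecule. Each time point held 4 WT libraries, lettered A to D. The labels do not say that each library is a separate mouse, so p-values measure the spread between libraries, part of which may be technical.

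The circadian clock is a transcriptional loop. CLOCK and BMAL1 bind E-box elements and switch on their own repressors, the PER and CRY proteins, together with the nuclear receptors REV-ERB alpha and beta, which shut off Arntl through ROR elements, and the PAR bZIP factor DBP, which acts through D-box elements. In the mouse liver E-box genes are known to peak towards the end of the subjective day and Arntl around its start, so CT16 to CT20 lies on the way from one phase to the other. The same hours of the night are those in which mice eat most and in which their body temperature is high.

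The 16 libraries held 1678097 to 4364594 counts and 11082 to 11592 genes with at least 1 count. Within their own time point, libraries correlated with a median r of 0.968 to 0.977 on the log scale at CT16, CT20 and CT40 and of 0.952 to 0.959 at CT44. Hepatocyte markers were abundant at both times: 9 markers summed to between 75299 and 107629 CPM (counts scaled to library depth) in the late libraries and between 78670 and 106300 CPM in the early ones. Of the markers of 9 other cell types, 1 was called between the times, Sox9, which marks bile duct cells. The summed level of the 5 measured bile duct markers was 38.7 to 111 CPM in the late libraries and 46.4 to 78.3 CPM in the early ones, and the ranges overlapped; its part in the result was not tested. In whole liver, a shift in the share of a cell type and a change of RNA per cell cannot be told apart.

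After the filter on low counts 9872 genes were tested with edgeR, with the day as a block. At an adjusted p under 0.05, 115 genes were higher at CT20/CT44 (1.16% of those tested) and 124 were lower (1.26%), together 2.42%. Most changes were modest: the median fold of the 239 called genes was 1.56 and the range 1.23 to 7.30. A gene is said here to switch on or off where it was called and moved at least 2-fold. By this rule 28 genes switched on and 21 switched off, 0.496% of the genes tested. Of the 49, 36 were called whichever of the 16 libraries was left out. The 8 late and the 8 early libraries did not overlap for 14 of the 49, 9 that switched on and 5 that switched off. Over all genes the libraries did not overlap for 55, or 0.557%, and 53 of these were among the 239 called genes. The choice of genes on these same libraries favours such a gap. Without replicate A of CT40, the deepest library, 71 genes were higher and 68 lower, and 80, 73 and 81 were lower without replicate A of CT20, replicate C of CT40 and replicate C of CT44. Scaling by the upper quartile gave 140 higher and 84 lower. All levels below are in CPM scaled over the 48 WT libraries, given as the lowest, median and highest of 8 libraries.

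The core clock split in the step. Of 11 clock genes tested, Arntl and Cry1 were higher and Ciart, Nr1d1, Per3 and Per2 were lower, so 6 of 11 were called against 2.42% of all genes. The median log2 fold change of the 11 was -0.68, against 0.01 over all genes tested. Ciart had the largest fold of the 239 called genes. Ciart (chr3:95878500-95882257, GRCm38), a repressor of CLOCK and BMAL1, stood at 0.777, 1.11 and 1.79 CPM at CT20/CT44 and at 1.78, 8.96 and 13.2 CPM at CT16/CT40. The ranges met at 1 early library, replicate B of CT40, which is also the shallowest library. Ciart fell by 2.87 on the log2 scale (SE 0.27, 7.30-fold, adjusted p = 9.74e-07). Nr1d1 (chr11:98767932-98775377), which encodes REV-ERB alpha, the repressor of Arntl, had 2.51, 4.31 and 8.89 CPM at CT20/CT44 and 11.5, 26.7 and 37.2 CPM at CT16/CT40. All late libraries lay below all early ones. Nr1d1 fell by 2.47 on the log2 scale (SE 0.24, 5.56-fold, adjusted p = 3.28e-06).

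The 3 period genes did not move alike. Per3, a member of the PER family, had 3.14, 4.02 and 6.61 CPM at CT20/CT44 and 6.73, 11.4 and 18.6 CPM at CT16/CT40, with no overlap, and fell 2.80-fold (adjusted p = 0.000138). Per2, a main repressor of the loop, had 11.7, 20.2 and 24.1 CPM at CT20/CT44 and 25.9, 28.5 and 38.0 CPM at CT16/CT40. The groups again did not overlap, but the fall was smaller, 1.61-fold (adjusted p = 0.014). Per1 was not called (adjusted p = 0.30), with 7.53, 13.7 and 26.6 CPM at CT20/CT44 and 11.2, 25.2 and 39.7 CPM at CT16/CT40. Its log2 fold change was -1.47 on the first day and 0.03 on the second.

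Arntl and Cry1 rose. Arntl, which encodes BMAL1 (chr7:113178471-113314126), had 12.3, 21.7 and 23.9 CPM at CT20/CT44 and 6.13, 7.25 and 10.1 CPM at CT16/CT40, so the groups did not overlap. It rose 2.71-fold (log2 1.44, SE 0.16, adjusted p = 4.04e-06). Cry1, a repressor that is itself under REV-ERB control and peaks later than the PER genes, had 29.5, 37.8 and 41.6 CPM at CT20/CT44 and 18.4, 20.4 and 24.2 CPM at CT16/CT40. It rose 1.74-fold with no overlap (adjusted p = 2.73e-05). Cry2, its paralog, stood at 31.3, 34.2 and 42.5 CPM at CT20/CT44 and 28.5, 34.0 and 44.2 CPM at CT16/CT40, and its log2 fold change of 0.04 (SE 0.10) was within the spread. Bhlhe40, an E-box repressor, had a log2 fold change of -0.46 (adjusted p = 0.12), and Nr1d2, which encodes REV-ERB beta, of -1.06 (SE 0.35, adjusted p = 0.13); neither was called. Clock, Npas2 and Rora were too low for the filter. Npas2, a BMAL1 partner, was listed with 22 counts over the 8 late libraries and 2 counts over the 8 early ones, a ratio of 12.0 per unit of depth (exact 95% interval 2.95 to 105, counting error only).

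The PAR bZIP factors and clock outputs had the largest share of called members of the 32 lists. Of 18 tested, 3 were higher and 8 were lower, against 2.42% called of all genes. Their median log2 fold change was -0.59, against 0.01 over all genes tested. Dbp (chr7:45705100-45710203), whose protein drives many nightly liver genes, had 8.85, 16.4 and 22 CPM at CT20/CT44 and 51.8, 113 and 181 CPM at CT16/CT40. The gap between the highest late and the lowest early library was thus more than the whole late range. Dbp fell by 2.72 on the log2 scale (SE 0.21, 6.59-fold, adjusted p = 9.74e-07). Its paralog Tef fell 1.81-fold, with 48.3, 72.3 and 97.1 CPM at CT20/CT44 and 102, 135 and 161 CPM at CT16/CT40. Hlf, the remaining member of the family, fell 1.54-fold, and Nfil3, which represses the same D-boxes, rose 1.66-fold; both were picked out after their values had been seen. Usp2, a deubiquitinase, had 14.3, 26.0 and 45.9 CPM at CT20/CT44 and 45.7, 81.6 and 107 CPM at CT16/CT40 and fell 2.90-fold (adjusted p = 0.0012). Upp2, a uridine phosphorylase of the same list, fell 2.23-fold, with 32.9, 70.9 and 113 CPM at CT20/CT44 and 90.3, 161 and 189.6 CPM at CT16/CT40. Wee1, a mitotic kinase under clock control, fell 1.96-fold with no overlap (adjusted p = 0.0041), just short of the 2-fold rule.

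Chka (chr19:3851585-3894369), which encodes choline kinase alpha, the first enzyme of phosphatidylcholine synthesis from choline, was the output that rose most. It had 88.7, 137 and 251 CPM at CT20/CT44 and 38.8, 48.6 and 54.7 CPM at CT16/CT40, with no overlap. Chka rose 3.16-fold (log2 1.66, SE 0.16, adjusted p = 3.28e-06). Gpcpd1, which breaks down glycerophosphocholine, moved the other way. It had 2.93, 4.28 and 5.83 CPM at CT20/CT44 and 4.85, 10.0 and 14.6 CPM at CT16/CT40 and fell 2.44-fold (adjusted p = 0.000973).

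**Figure D1:**
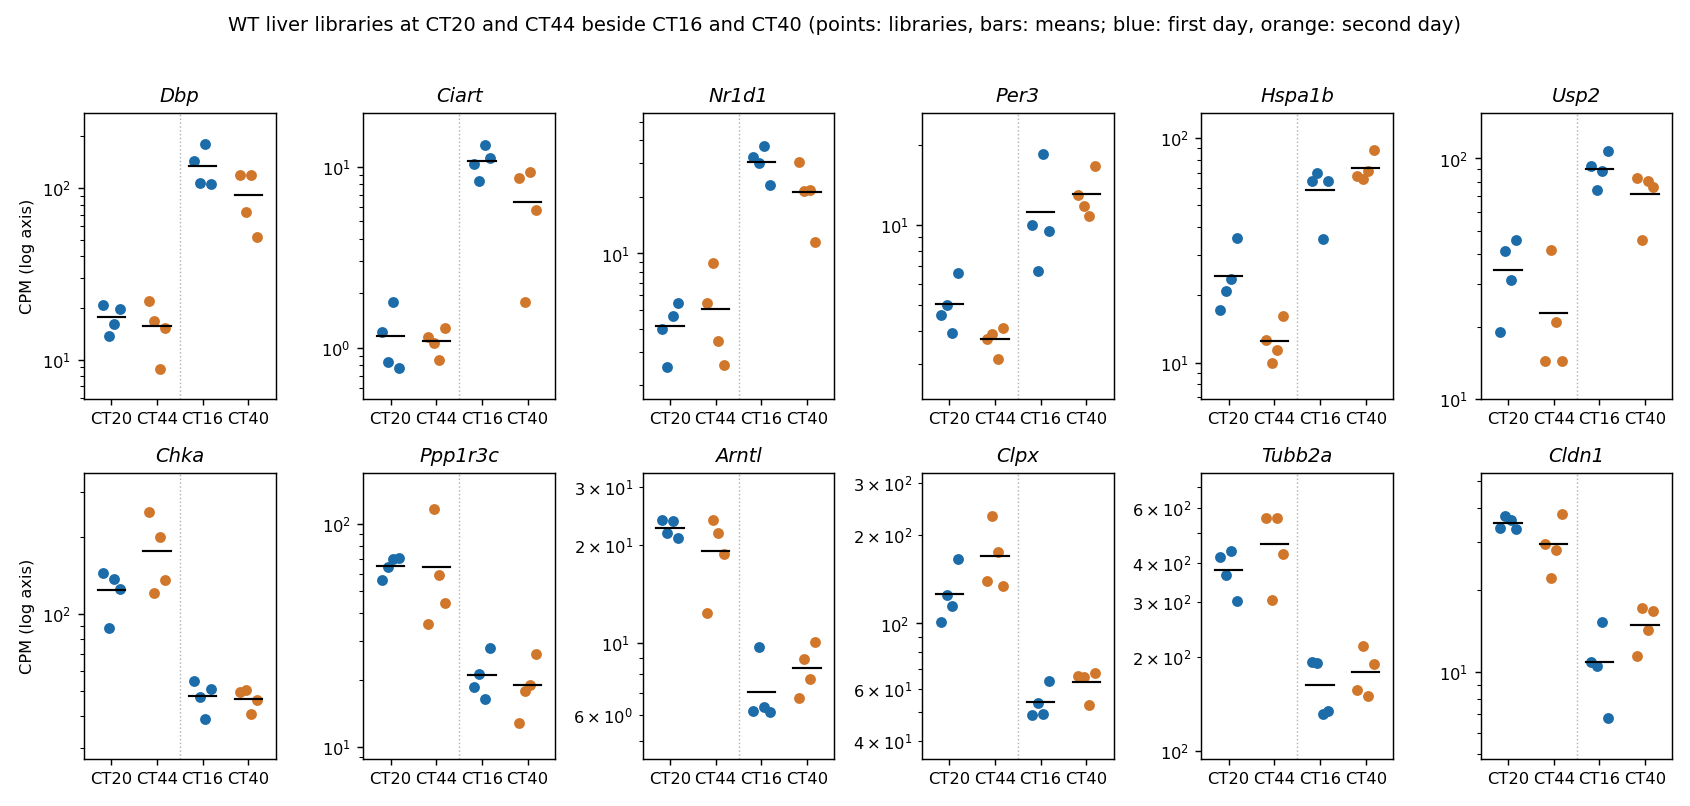
Level of 12 switch genes in each of the 16 WT libraries, in CPM on a log axis, with CT20 and CT44 to the left of CT16 and CT40; points are libraries, black bars are means of 4, blue is the first day and orange the second. In the upper row, 6 genes that fell, the late libraries of Dbp (8.85 to 22 CPM) lie below the early ones (51.8 to 181 CPM), and in the lower row, 6 genes that rose, those of Chka (88.7 to 251 CPM) lie above them (38.8 to 54.7 CPM).

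The promoters of the switch genes were read to show which known elements lie near their starts. A promoter window runs from 250 bases before to 50 bases after a RefSeq start (GRCm38.p6), and 16 of the 28 genes that switched on, 17 of the 21 that switched off and 7609 of the 9872 tested matched one by symbol. The 5 windows below are examples from the switch genes that carry an element of the clock or of heat shock. Matches are in capitals, and windows are written 5′ to 3′ along the gene's own strand. Ciart lies on the minus strand (chr3:95882179-95882478), Per3 on the minus strand (chr4:151044616-151044915), Coq10b on the plus strand (chr1:55052520-55052819), Hspa1b on the minus strand (chr17:34959189-34959488) and Arntl on the plus strand (chr7:113207261-113207560). Capitals mark the E-box CACGTG in Ciart, the D-box TTANGTAA in Per3, one of each in Coq10b, the heat shock element GAANNTTC in Hspa1b and the extended ROR element in Arntl, each on either strand. Not printed are the windows of Ppp1r3c and Pfkfb3 with an E-box, Ptgds and Camk1d with a D-box, and Grk5 with a heat shock element. Of these genes Pfkfb3 switched off and the others switched on.
Ciart: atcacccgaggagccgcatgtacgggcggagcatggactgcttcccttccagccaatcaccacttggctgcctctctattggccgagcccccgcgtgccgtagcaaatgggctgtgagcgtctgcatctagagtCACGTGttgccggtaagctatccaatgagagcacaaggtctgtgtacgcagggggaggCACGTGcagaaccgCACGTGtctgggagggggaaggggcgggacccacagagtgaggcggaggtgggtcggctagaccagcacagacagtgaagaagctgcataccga
Per3: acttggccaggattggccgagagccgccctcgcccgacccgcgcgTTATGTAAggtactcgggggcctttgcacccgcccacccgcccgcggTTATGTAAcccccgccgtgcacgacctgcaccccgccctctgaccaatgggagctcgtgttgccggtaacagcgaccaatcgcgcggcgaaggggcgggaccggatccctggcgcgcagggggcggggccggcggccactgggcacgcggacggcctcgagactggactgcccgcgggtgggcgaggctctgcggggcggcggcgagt
Coq10b: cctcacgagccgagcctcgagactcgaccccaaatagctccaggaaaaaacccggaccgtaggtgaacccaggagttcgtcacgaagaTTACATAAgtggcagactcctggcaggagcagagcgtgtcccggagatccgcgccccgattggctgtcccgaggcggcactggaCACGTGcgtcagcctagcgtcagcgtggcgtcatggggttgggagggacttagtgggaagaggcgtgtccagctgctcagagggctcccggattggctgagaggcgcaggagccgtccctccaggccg
Hspa1b: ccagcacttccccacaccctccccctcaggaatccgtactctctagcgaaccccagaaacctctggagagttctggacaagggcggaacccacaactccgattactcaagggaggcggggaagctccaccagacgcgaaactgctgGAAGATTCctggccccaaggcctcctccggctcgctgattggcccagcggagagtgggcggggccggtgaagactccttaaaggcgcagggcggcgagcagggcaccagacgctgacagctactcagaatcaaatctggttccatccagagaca
Arntl: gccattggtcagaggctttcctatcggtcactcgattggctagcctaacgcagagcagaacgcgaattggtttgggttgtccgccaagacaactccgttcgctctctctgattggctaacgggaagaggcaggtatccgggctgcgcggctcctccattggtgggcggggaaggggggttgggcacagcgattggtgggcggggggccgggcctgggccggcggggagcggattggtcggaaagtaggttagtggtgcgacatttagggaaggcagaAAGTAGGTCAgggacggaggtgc

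With the start base as position 0, the E-boxes of Ciart began at positions -116, -58 and -44, and the D-boxes of Per3 at positions -205 and -158. Coq10b, which encodes a coenzyme Q binding protein, held a D-box at -162 and an E-box at -78, and Hspa1b a heat shock element at -104. Arntl held a ROR element at 27, within the first bases transcribed from the start of that window. Of the 2 windows of Arntl only the printed one held it, and this window lies inside the coordinates given above for the gene. An E-box was in 1 of the 16 windows of genes that switched on, in 3 of the 17 of genes that switched off and in 12.5% of all tested windows. A D-box was in 2 of 16, in 2 of 17 and in 1.91% of all. The ROR element was in 1 of 16, in 0 of 17 and in 0.223% of all, and the heat shock element was in 1 of 16, in 1 of 17 and in 7.19% of all. No window of Dbp or Nr1d1 held any of the motifs searched. The remaining motifs, CARE (TGATGNAA), the sterol element (TCACNCCAC), FOXO (GTAAACA), CRE (TGACGTCA) and the full palindromic GRE, were in 0 to 2 windows of each set and in 0.0263% to 3.63% of all. These shares are descriptions of a short window, and a gene with several starts was counted once if any window matched.

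Among the cytosolic heat shock chaperones 1 of 24 was higher and 2 were lower, against 2.42% called of all genes, with a median log2 fold change of 0.06. Hspa1b (chr17:34956429-34959238), an inducible HSP70 chaperone, had 9.95, 16.6 and 35.8 CPM at CT20/CT44 and 35.3, 66.3 and 88.6 CPM at CT16/CT40. The ranges touched at 1 library on each side, replicate D of CT20 and replicate C of CT16. Hspa1b fell 3.65-fold (log2 -1.87, SE 0.23, adjusted p = 0.000235). Its near-identical neighbour Hspa1a stood at 0, 1.03 and 4.66 CPM at CT20/CT44 and 1.88, 3.80 and 9.0 CPM at CT16/CT40, and was not called (adjusted p = 0.098); reads of the pair can be assigned to either, so the split between them is uncertain. Hspa8, the constitutive HSC70, had 413, 731 and 841 CPM at CT20/CT44 and 1035, 1179 and 1362 CPM at CT16/CT40, and fell 1.74-fold with no overlap (adjusted p = 6.42e-05). Hspa4l, an HSP110 type nucleotide exchange factor, rose 1.73-fold (adjusted p = 0.014). Hspa2, an HSP70 best known from testis and not on that list, had 1.07, 2.04 and 2.93 CPM at CT20/CT44 and 2.79, 4.64 and 6.52 CPM at CT16/CT40 and fell 2.20-fold. In the endoplasmic reticulum list Dnajb9, a co-chaperone, was the 1 called gene of 29 and fell 1.5-fold.

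Of 18 tested genes of glycolysis, glycogen and glucose uptake, 5 were lower and 1 was higher, against 2.42% called of all genes, with a median log2 fold change of -0.24. Gys2, the liver glycogen synthase, had 216, 279 and 309 CPM at CT20/CT44 and 309.6, 449 and 569 CPM at CT16/CT40; the groups just failed to overlap and the fold was 1.65 (adjusted p = 3.12e-05). Ppp1r3c, a targeting subunit that brings protein phosphatase 1 to glycogen and activates its synthesis, moved the other way. It had 35.5, 61.8 and 117 CPM at CT20/CT44 and 12.8, 18.7 and 27.9 CPM at CT16/CT40, with no overlap, and rose 3.24-fold (log2 1.70, SE 0.22, adjusted p = 0.000373). Pfkfb3, which makes the allosteric activator of phosphofructokinase, had 3.06, 5.60 and 11.3 CPM at CT20/CT44 and 9.18, 14.3 and 24.8 CPM at CT16/CT40 and fell 2.36-fold (adjusted p = 0.0041). Tkfc, which phosphorylates the glyceraldehyde and dihydroxyacetone of fructose breakdown, fell 1.5-fold with no overlap. Slc2a2, the glucose transporter GLUT2, fell 1.89-fold with no overlap, and was picked out after its values had been seen. In the gluconeogenesis list 1 of 15 was called, Slc37a4, which carries glucose 6-phosphate into the endoplasmic reticulum, and it fell 1.68-fold (adjusted p = 0.000114). Gpd2, the mitochondrial glycerol 3-phosphate dehydrogenase, had 2.31, 2.96 and 5.14 CPM at CT20/CT44 and 3.74, 8.31 and 12.9 CPM at CT16/CT40 and fell 2.39-fold.

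Of 26 genes of fatty acid and triglyceride synthesis, 2 were higher and 3 were lower, against 2.42% called of all genes. Elovl6, which elongates palmitate, had 1.72, 18.2 and 25.0 CPM at CT20/CT44 and 23.2, 45.4 and 69.9 CPM at CT16/CT40. The 2 lowest values, 1.72 and 3.55 CPM, were replicates A and B of CT44, and the other 6 late libraries held 14.1 to 25.0 CPM. Elovl6 fell 3.03-fold with a wide error (log2 -1.60, SE 0.38, adjusted p = 0.046) and was called in 3 of the 16 fits that left out a library. Cpt1a, the gate of fatty acids into the mitochondrion and the 1 called gene of 34 in the PPARalpha list, was set apart by the same libraries. Replicates A and B of CT44 held 251 and 244 CPM, the other 6 late libraries 118 to 144 CPM, and the early libraries 215 to 273 CPM. Cpt1a fell 1.53-fold (adjusted p = 0.028) and was called in 6 of the 16 fits. Insig2, an anchor of the sterol sensor SCAP, rose 1.70-fold and Plin2, a lipid droplet coat protein, 1.38-fold. Dgat1 and Dgat2, which make triglyceride, fell 1.29-fold and 1.31-fold, and Dgat2 was called in 3 of the 16 fits. Lipg, endothelial lipase, had 3.07, 6.13 and 9.62 CPM at CT20/CT44 and 7.53, 11.8 and 20.8 CPM at CT16/CT40 and fell 2.20-fold.

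Clpx (chr9:65294251-65330658), the unfoldase of the mitochondrial ClpXP protease, had 101, 137 and 231 CPM at CT20/CT44 and 48.8, 58.9 and 67.9 CPM at CT16/CT40. The groups did not overlap. Clpx rose 2.52-fold (log2 1.33, SE 0.12, adjusted p = 9.74e-07). Adck3, a kinase-like protein needed for coenzyme Q synthesis, rose 2.29-fold, whereas Coq10b, the coenzyme Q binding protein, fell 2.06-fold. Adck3 stood at 8.30, 26.7 and 39.3 CPM at CT20/CT44 and 7.19, 10.0 and 15.4 CPM at CT16/CT40. Coq10b stood at 7.35, 8.91 and 15.1 CPM at CT20/CT44 and 14.2, 19.8 and 28.5 CPM at CT16/CT40. Of the genes of amino acid breakdown, Hal, which degrades histidine, rose 1.58-fold and Gldc, of the glycine cleavage system, 1.82-fold. Slc38a3, a glutamine transporter of the same list, fell 1.56-fold. Of the 37 genes tested in that list 2 were higher and 1 was lower, against 2.42% called of all genes.

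Tubb2a, a beta-tubulin, had 302, 423 and 557 CPM at CT20/CT44 and 132, 173 and 218 CPM at CT16/CT40. It rose 2.48-fold with no overlap (adjusted p = 3.28e-06); its close paralog Tubb2b could share reads with it. Cldn1, a tight junction protein, had 22, 33.6 and 37.9 CPM at CT20/CT44 and 6.81, 12.8 and 17.2 CPM at CT16/CT40 and rose 2.54-fold with no overlap (adjusted p = 1.15e-05). St5, an activator of Rab small GTPases, had 37.5, 48 and 61.6 CPM at CT20/CT44 and 18.1, 20.1 and 32.6 CPM at CT16/CT40, and rose 2.26-fold, also with no overlap. Spon2, a secreted matrix protein, had 8.20, 17.4 and 33.1 CPM at CT20/CT44 and 2.12, 5.97 and 11.3 CPM at CT16/CT40 and rose 3.01-fold (adjusted p = 0.015). Dtx4, an E3 ubiquitin ligase of the Deltex family, rose 2.75-fold, Grk5, a kinase of G protein-coupled receptors, 2.67-fold, Asap2, a GTPase-activating protein of ARF, 2.45-fold, and Exoc3l4, related to an exocyst subunit, 2.79-fold. These were low genes, with median levels of 3.11 to 12.5 CPM at CT20/CT44 and of 1.18 to 4.02 CPM at CT16/CT40.

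Ppard, a nuclear receptor for fatty acids, had 12.1, 39.8 and 61.7 CPM at CT20/CT44 and 11.4, 13 and 20.2 CPM at CT16/CT40; 6 late libraries lay above all early ones and replicates A and B of CT44 lay among them, at 15.2 and 12.1 CPM. It rose 2.65-fold (adjusted p = 0.022). Sox9, a transcription factor, had 7.05, 9.01 and 10.5 CPM at CT20/CT44 and 2.59, 3.86 and 5.75 CPM at CT16/CT40 and rose 2.20-fold with no overlap. Dnmt3b, a de novo DNA methyltransferase, rose 2.33-fold, with 3.22, 5.22 and 6.57 CPM at CT20/CT44 and 1.40, 2.09 and 3.53 CPM at CT16/CT40. Egr1, an immediate early transcription factor, had the largest fold among the 115 genes that rose, with 9.99, 21.8 and 167 CPM at CT20/CT44 and 2.82, 5.39 and 11.3 CPM at CT16/CT40. Replicates A and C of CT44 held 167 and 66.3 CPM, and the other 6 late libraries 9.99 to 29.3 CPM. Its fold was 6.77 (log2 2.76, SE 0.62, adjusted p = 0.033), and it was called in 5 of the 16 fits that left out a library. It was the 1 called gene of 20 in the immediate early list, against 2.42% called of all genes. The median log2 fold change of that list was 0.39, against 0.01 over all genes tested.

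Further genes that switched on were Rnf125 and Spsb4, parts of ubiquitin ligases, Ptgds, Mfsd7c, Camk1d, Adra2b, Adgb, Pik3cd and the unnamed transcripts 1700024P16Rik and 6430573F11Rik, with folds of 2.01 to 2.67. Of these, Spsb4 and 1700024P16Rik were called in all 16 fits that left out a library and the other 8 in 4 to 15. The other genes that switched off were Pcsk4, Tsku, Slc5a6, Nrg4, Slc22a3, Il12rb1 and Adgrv1. Among them Adgrv1 was called in 6 of the 16 fits that left out a library, Il12rb1 in 15 and the rest in all 16. Pcsk4, a proprotein convertase, had 27.1, 37.7 and 56.9 CPM at CT20/CT44 and 69.6, 108 and 119 CPM at CT16/CT40. It fell 2.60-fold with no overlap (log2 -1.38, SE 0.13, adjusted p = 9.74e-07). Tsku, a secreted leucine-rich protein, had 30.6, 44.9 and 61.4 CPM at CT20/CT44 and 61.1, 98.2 and 113 CPM at CT16/CT40 and fell 2.18-fold. Slc5a6, the transporter of biotin and pantothenate, had 3.06, 4.46 and 6.01 CPM at CT20/CT44 and 7.54, 9.94 and 11.5 CPM at CT16/CT40 and fell 2.19-fold with no overlap. Nrg4, a secreted ligand of ERBB receptors, fell 2.44-fold, with 0.769, 2.65 and 4.18 CPM at CT20/CT44 and 4.04, 5.29 and 9.65 CPM at CT16/CT40. Slc22a3, an organic cation transporter, fell 3.15-fold at very low counts, with a late median of 0.664 CPM and an early one of 3.41 CPM.

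Most of the other lists gave few or no calls. Of all 9872 genes tested 2.42% were called, and 723 higher and 731 lower had an unadjusted p under 0.05. In 16 of the 32 lists no member was called by edgeR, among them the cytosolic ribosomal proteins (69 tested, 0 at an unadjusted p under 0.05), the respiratory chain (47 tested, 0 at an unadjusted p under 0.05), the proteasome (34 tested, 0) and cholesterol synthesis (23 tested, 1). The acute phase proteins, secreted by hepatocytes, had 2 of 24 higher, the fibrinogen chains Fga (1.33-fold) and Fgg (1.27-fold), and a median log2 fold change of 0.34. Gclc, which makes the precursor of glutathione, was the 1 called gene of 27 in the NRF2 list and rose 1.54-fold. Por, which passes electrons to the cytochromes P450, was the 1 called of 24 in its list and fell 1.70-fold. Its level in replicates A and B of CT44 was 740 and 928 CPM, inside the early range of 661 to 1124 CPM, and that in the other 6 late libraries 280 to 508 CPM; it was called in 4 of the 16 fits that left out a library. Ulk1, a kinase that starts autophagy and the 1 called of 31 in its list, fell 1.38-fold. Bhlhe41, of the core clock list, was not analysed here.

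**Figure D2:**
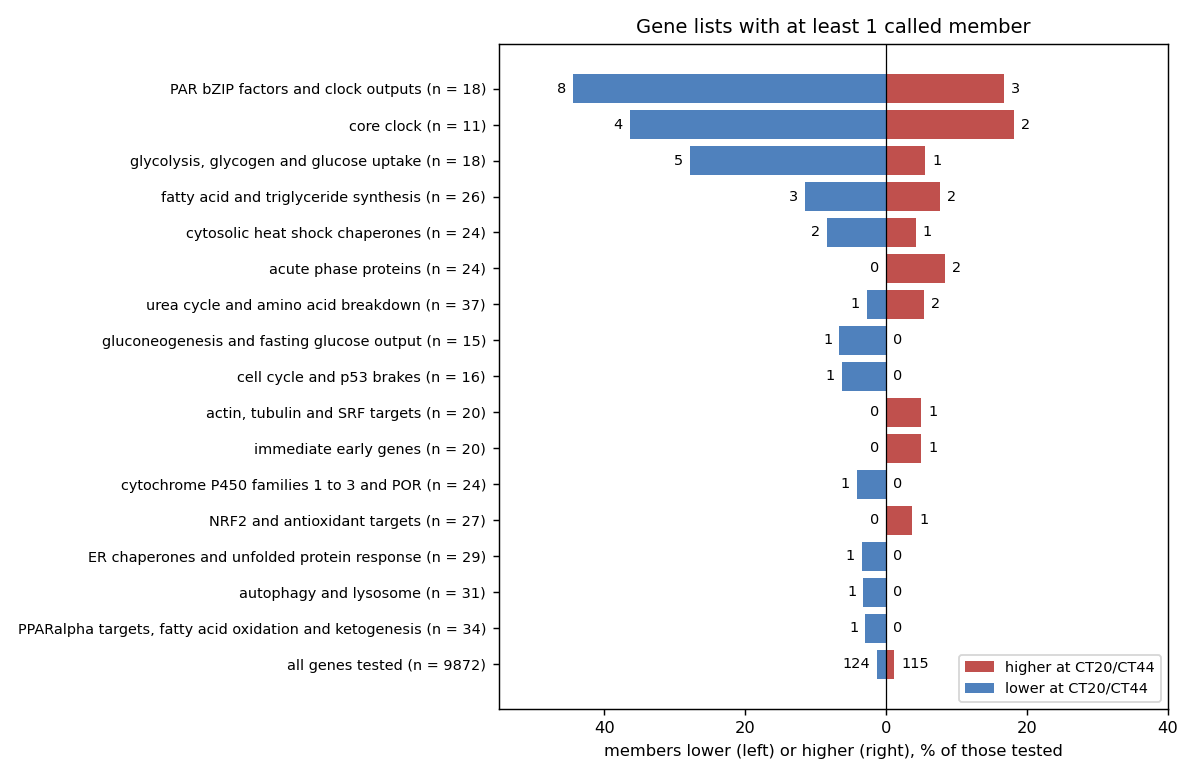
Share of the tested members of each gene list that were called in the step, in percent, with members lower at CT20/CT44 to the left of 0 and members higher to the right; the numbers at the bars are genes, n is the number tested, and lists with no call are left out. The PAR bZIP factors and clock outputs had 8 lower and 3 higher of 18 and the core clock 4 lower and 2 higher of 11, against 124 lower and 115 higher of all 9872 genes.

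The days were compared because CT20 and CT44 are 24 hours apart and their libraries are separate. With each day tested alone, 39 genes were higher and 24 lower on the first day, and 73 were higher and 84 lower on the second. Of the 63 genes called on the first day, 58 had the same direction on the second, and 46 reached an unadjusted p under 0.05 there, against 53.2% and 10.3% of all genes. Of the 157 called on the second day, 127 had the same direction on the first and 64 reached an unadjusted p under 0.05, against 53.2% and 6.30% of all genes; 28 genes were called on both days. All 49 switch genes had the same direction on both days, as the choice over both days favours. The size of the step differed between the days for 0 of 9872 genes in edgeR (lowest adjusted p = 0.21, 899 genes at an unadjusted p under 0.05) and for 22 in DESeq2. Without replicate A of CT40, C of CT44 or D of CT44, edgeR called 1, 6 and 2. Dbp fell by 2.92 on the first day and by 2.52 on the second on the log2 scale, Nr1d1 had log2 fold changes of -2.87 and -2.10, and Ciart of -3.15 and -2.57. Hspa1b fell by 1.26 on the first day and by 2.52 on the second, a difference that edgeR did not call (adjusted p = 0.35). Chka rose by 1.38 on the first day and by 1.94 on the second.

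**Figure D3:**
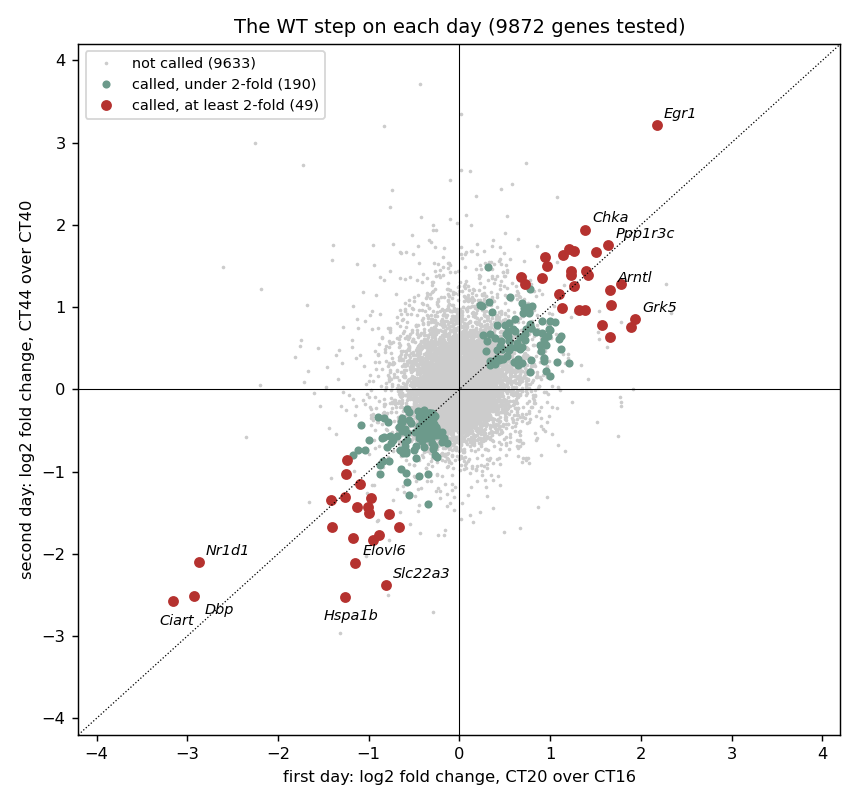
Log2 fold change of each tested gene on the first day (CT20 over CT16, x axis) and on the second (CT44 over CT40, y axis), with grey for genes not called, green for the 190 called under 2-fold and red for the 49 switch genes; the dotted line marks equal change, and 2 genes that were not called lie outside the axes. The red points lie in the lower left and upper right quadrants, with Ciart at -3.15 and -2.57 and Egr1 at 2.17 and 3.21.

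The position of the step in the whole day was read from the mean level at all 12 WT time points, averaged over the days. Of the 28 genes that switched on, 19 had their highest mean at CT0, 4 at CT4 and 5 at CT20, and 16 had their lowest at CT12, 10 at CT16 and 2 at CT8. Of the 21 that switched off, 13 were highest at CT12, 6 at CT16 and 2 at CT8, and 10 were lowest at CT0, 6 at CT4 and 5 at CT20. For 17 of the 28 and 7 of the 21 the step from CT16 was the largest of the 6 steps of the day, which the choice of the genes on this step favours, while 11 of the 21 moved most from CT4 to CT8. Dbp averaged 433 CPM at CT12, 113 CPM at CT16, 16.7 CPM at CT20 and 6.38 CPM at CT0, so the step lay in the middle of a longer decline. Nr1d1 reached its lowest mean, 4.61 CPM, at CT20 itself, after 256 CPM at CT8. Hspa1b had a narrow peak: its mean was 14.2 CPM at CT12, 65.7 CPM at CT16 and 18.4 CPM at CT20. Chka and Arntl had begun to rise before the step, from 19.9 CPM at CT12 to 47.4 CPM at CT16 and 151 CPM at CT20 for Chka, and from 1.47 CPM to 7.73 CPM and 20.8 CPM for Arntl.

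**Figure D4:**
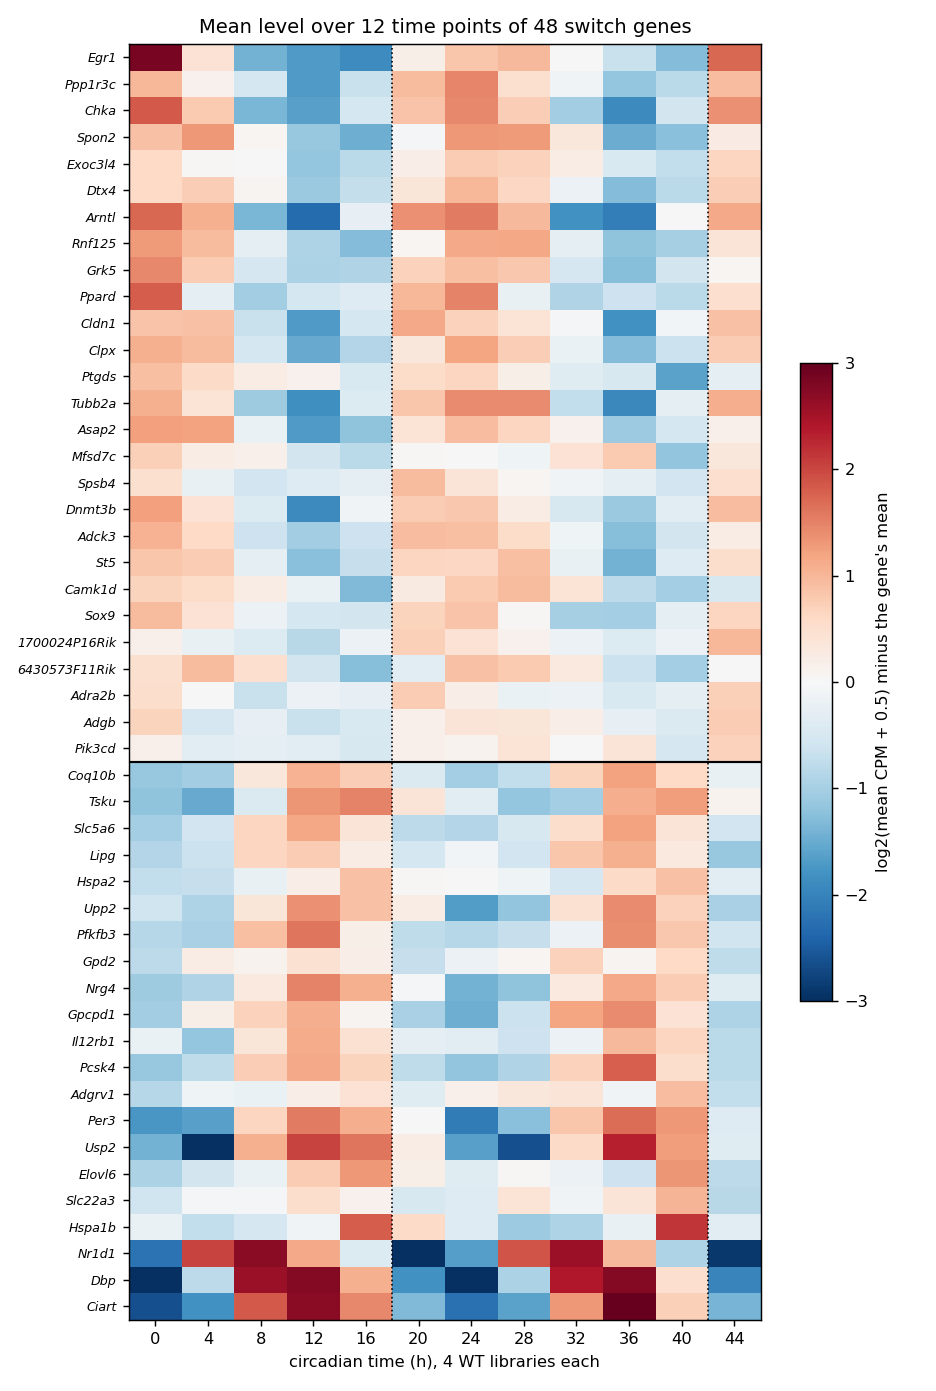
Mean level of 48 of the 49 switch genes at the 12 WT time points (x axis, circadian time in hours, 4 libraries each), as log2 of the mean CPM plus 0.5 minus the mean over time points, red for high and blue for low; rows run from the largest rise to the largest fall, the black line parts 27 genes that switched on from the 21 that switched off, and dotted lines mark the step on each day. Most of the upper genes are red at 0 and 24 hours and blue at 12 and 36 hours, and most of the lower genes the reverse.

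The step was then compared between genotypes, in 1 fit over the 45 libraries of these times with 9381 genes that passed the filter. Transcripts of the targeted genes were still counted in the knockouts. Arntl had medians of 8.49 CPM at CT20/CT44 and 9.89 CPM at CT16/CT40 in Bmal1-/-, against 22.4 and 7.50 CPM in WT. Per2 had medians of 20.5 and 20.1 CPM in Per1,2-/-, against 20.7 and 29.5 CPM in WT, and Per1 of 9.89 and 14.6 CPM, against 14.1 and 26.1 CPM in WT. Which bases are deleted is not given in the sources used here, so these 3′ counts do not check the genotype labels. The counts of each genotype came as a separate set, and whether the libraries were prepared together is not given either. In levels set side by side across genotypes, here and below, genotype and set of libraries therefore cannot be told apart. In that fit 162 genes were higher and 170 lower in WT. In Per1,2-/- livers 0 were higher and 4 lower, with 641 genes at an unadjusted p under 0.05 and 32 calls by DESeq2. In Bmal1-/- livers 0 were called, with 1131 genes at an unadjusted p under 0.05 and 1 call by DESeq2. The step of WT differed from that of Per1,2-/- for 193 genes (2.06% of those tested) and from that of Bmal1-/- for 86 genes (0.917%). DESeq2 called 255 and 183 genes for these differences. The 4 genes called in Per1,2-/-, all lower, were C6, Dnajc12, Orm2 and Serpina1e (edgeR adjusted p 0.034 to 0.040). C6 is a complement component, and Orm2 and Serpina1e are secreted liver proteins. None of the 4 was called in WT. The early Per1,2-/- libraries reached 1067 CPM for Fga and 8195 CPM for Fgg, 2 acute phase genes, against medians of 355 and 2929 CPM. Whether the 4 calls rest on single knockout libraries was not tested.

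Of the 49 switch genes 42 were measured in all 3 genotypes, and 0 of the 42 were called in either knockout. Of all 9381 genes only 4 were called in Per1,2-/- and 0 in Bmal1-/-, so the absence of calls is not particular to the switch genes. The median log2 fold change of the 23 that switched on was 1.34 in WT, -0.11 in Per1,2-/- and 0.08 in Bmal1-/-, and that of the 19 that switched off was -1.31 in WT, 0.12 in Per1,2-/- and -0.10 in Bmal1-/-. The step differed from WT for 30 of the 42 in Per1,2-/- and for 17 in Bmal1-/-, against 2.06% and 0.917% of all genes. These genes were chosen on the WT libraries that also enter the comparison. The choice favours a larger step in WT, so neither these counts nor the medians above are independent of it. For the others a difference from WT was not shown. Dbp had 9.13, 17.0 and 22.6 CPM at CT20/CT44 and 53.7, 117 and 185 CPM at CT16/CT40 in WT on the scale of these 45 libraries. In Per1,2-/- both times overlapped the early WT range, with 102, 171 and 212 CPM at CT20/CT44 and 60.9, 151 and 168 CPM at CT16/CT40. In Bmal1-/- both times overlapped the late WT range, with 8.91, 11.9 and 16.0 CPM at CT20/CT44 and 11.2, 12.7 and 18.6 CPM at CT16/CT40. The difference of the Dbp step was -2.84 for WT minus Per1,2-/- (adjusted p = 2.74e-09) and -2.59 for WT minus Bmal1-/- (adjusted p = 7.69e-07).

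Chka, which switched on in WT, had 91.1, 143 and 257 CPM at CT20/CT44 and 39.8, 50.3 and 56.5 CPM at CT16/CT40 in WT. In Per1,2-/- it had 16.5, 20.8 and 34.8 CPM at CT20/CT44 and 24.5, 28.8 and 48.7 CPM at CT16/CT40, below the early WT range for 7 of 7 late libraries. In Bmal1-/- it had 79.2, 88.0 and 101 CPM at CT20/CT44 and 75.8, 117 and 148 CPM at CT16/CT40. The Chka step differed by 2.18 from Per1,2-/- (adjusted p = 5.94e-09) and by 2.01 from Bmal1-/- (adjusted p = 4.58e-08). Hspa1b had a median of 17.2 CPM at CT20/CT44 and of 68.6 CPM at CT16/CT40 in WT, of 18.3 CPM and 19.9 CPM in Per1,2-/- and of 29.8 CPM and 25.4 CPM in Bmal1-/-. The highest early library was at 54.8 CPM in Per1,2-/- and 80.7 CPM in Bmal1-/-. The Hspa1b step differed from Bmal1-/- by -1.85 (adjusted p = 0.021), while the difference of -1.53 from Per1,2-/- missed the threshold (adjusted p = 0.0504). Pfkfb3, Grk5 and Slc22a3 differed from neither knockout beyond the threshold. The same held for the switch genes Ptgds, Spsb4, Camk1d, Adra2b, Adgb, Hspa2, Il12rb1 and Adgrv1.

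**Figure D5:**
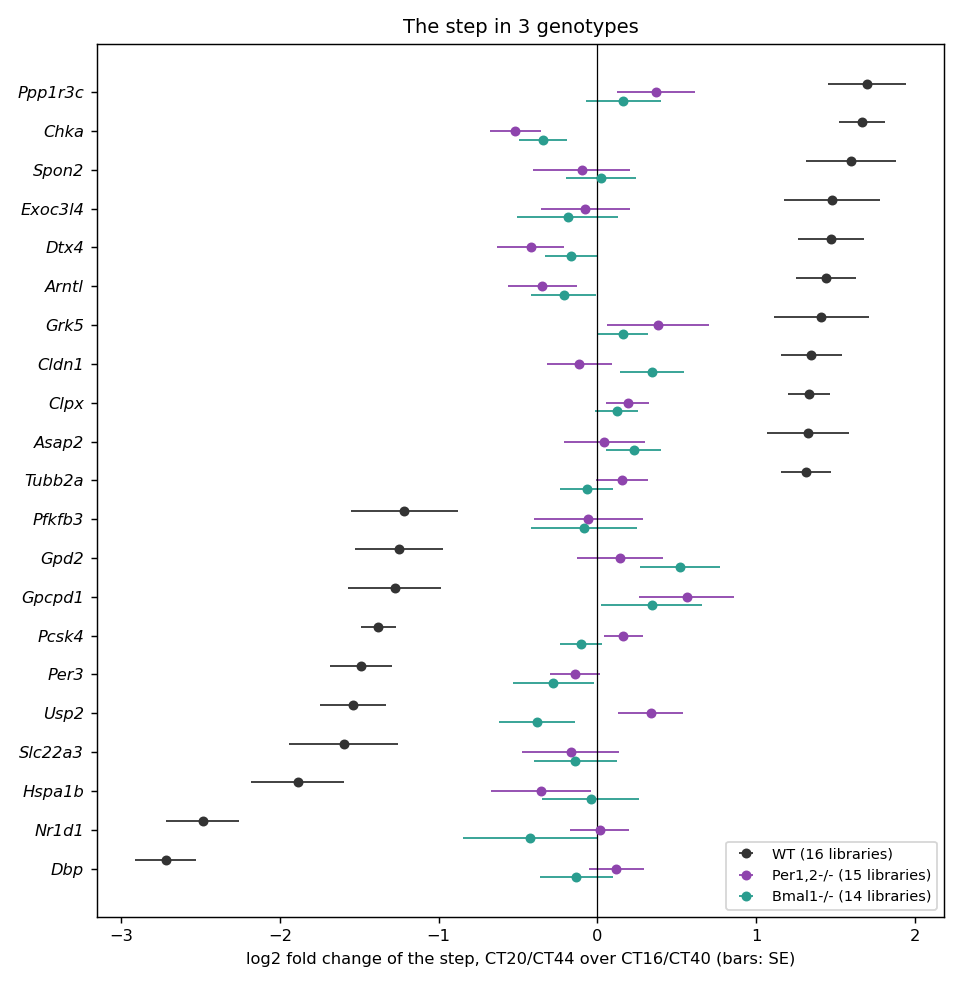
Log2 fold change of the step, CT20/CT44 over CT16/CT40, for 21 of the leading switch genes measured in all 3 genotypes, with WT (black, 16 libraries) above Per1,2-/- (purple, 15) and Bmal1-/- (green, 14) in each row; bars are standard errors from the joint edgeR fit. WT points lie beyond 1 on either side, and the knockout points lie nearer to 0, for Dbp at 0.12 in Per1,2-/- and -0.13 in Bmal1-/-. The genes were chosen for a step of at least 2-fold in the same WT libraries, which favours both.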

How the data were processed

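Liver RNA was sequenced by MARS-seq. The authors used bcl2fastq, cutadapt, STAR (mm10) and HTSeq, and counted unique molecular identifiers on RefSeq genes extended by 1000 bases at the 5′ and 100 bases at the 3′ end (versions are not given in the sources used here). The deposited raw counts were used, and 94 columns of values that the authors had normalized with DESeq2 were not. The WT table lists 11727 genes, and those with a summed count of at least 80 over the 16 libraries were tested. Counts were fitted with edgeR 4.0.16 (R 4.3.3; TMM scaling, robust quasi-likelihood test, day and step as terms) and Benjamini-Hochberg adjustment over all tested genes. DESeq2 1.42.0, other scalings, filters and designs, and leaving out each of the 16 WT libraries in turn were alternatives. The genotype fit held the 45 libraries of the 3 genotypes at these times. The tests were run on simulated counts: edgeR called 36% of 50 genes changed 1.5-fold, 82% of 50 changed 2-fold and 96% of 50 changed 3-fold among 9872. Named genes were the 12 largest rises and the 12 largest falls among switch genes called without each library, all measured core clock genes, and up to 4 called members of each other list with the smallest adjusted p. Further genes were named after their values had been seen. The comparison and the 32 lists were chosen with earlier results of these data known. Some genes are not reported here.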

Additional observations from a re-analysis of the deposited data

Results flagged for a closer look

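In 8 of 116 groups of 4 libraries of the leading and core clock genes (29 genes), 1 library lay far from the other 3, where chance alone gives about 1 in 20. Arntl was at 9.69 CPM in replicate B of CT16 (others 6.13 to 6.35 CPM), Clpx at 52.8 CPM in replicate C of CT40 (others 65.8 to 67.9 CPM), and Asap2 at 4.28 CPM in replicate D of CT20 (others 6.08 to 6.43 CPM). Slc22a3 was at 1.78 CPM in replicate B of CT44 (others 0.512 to 0.573 CPM). Pfkfb3 had such a library at 3 time points, with 11.3 CPM in replicate D of CT20 (others 3.06 to 4.29 CPM), 3.55 CPM in replicate B of CT44 (others 6.92 to 7.45 CPM) and 15.6 CPM in replicate B of CT16 (others 9.18 to 10.2 CPM). Per2 was at 24.1 CPM in replicate D of CT44 (others 11.7 to 12.8 CPM).

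The step differed between genotypes for 193 genes (WT minus Per1,2-/-) and for 86 genes (WT minus Bmal1-/-). Among leading genes that rose, the difference on the log2 scale from Per1,2-/- and then from Bmal1-/- was 1.33 and 1.54 for Ppp1r3c, 2.18 and 2.01 for Chka, 1.69 and 1.57 for Spon2, 1.89 and 1.64 for Dtx4, 1.14 and 1.21 for Clpx, and 1.16 and 1.38 for Tubb2a. For Arntl it was 1.79 and 1.65, and the second value compares WT with mice in which Arntl itself is the disrupted gene. It was called for Per1,2-/- but not for Bmal1-/- for Exoc3l4 (1.55), Cldn1 (1.46) and Asap2 (1.28). Among those that fell it was -2.84 and -2.59 for Dbp, -2.50 and -2.06 for Nr1d1, -1.54 and -1.28 for Pcsk4, and -1.39 and -1.77 for Gpd2. It was called for Per1,2-/- alone for Usp2 (-1.87), Per3 (-1.35) and Gpcpd1 (-1.84), and for Bmal1-/- alone for Hspa1b (-1.85). Whether the differences from the knockouts themselves differ was not tested.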

How the results depend on the processing

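No fold change of the named genes followed reversed in sign under the alternatives. The balance of the counts did shift. More genes were lower than higher in the main fit (124 against 115). The reverse held in some fits, among them those with all 48 WT libraries, upper quartile scaling and a replicate block by letter. With all 48 WT libraries in the fit 246 genes were higher, 224 lower and 48 switched on. A test against a 1.5-fold change (glmTreat) kept 8 genes on and 8 off. An adjusted p under 0.01 left 43 higher and 42 lower, and a fold of at least 1.5 gave 82 on and 56 off. Upper quartile scaling gave 140 higher and 84 lower, against 115 and 124. DESeq2 called 22 genes for the difference between days, 183 for WT minus Bmal1-/-, 32 for Per1,2-/- and 1 for Bmal1-/-. No clear pairing of the samples by library letter was seen (24 pairs, r -0.16 to 0.17, 5 over 0.1), but what the letters stand for is not given. With the replicate block by letter there were 106 genes higher, 103 lower, 25 on, 20 off, 1 for the day difference, 180 and 95 for the genotype differences, and 0 in either knockout. With each of the 16 WT libraries left out in turn there were 71 to 149 genes higher, 68 to 170 lower, 20 to 34 on and 17 to 24 off. Counts were 0 to 6 for the day difference, 135 to 274 for WT minus Per1,2-/- and 64 to 126 for WT minus Bmal1-/-. Within Per1,2-/- 3 to 6 genes were called, and within Bmal1-/- 0. No knockout library was left out, so these fits do not show how far the knockout steps rest on single libraries. The causes of these shifts were not tested. A further 78 genes moved at least 2-fold without being called.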

Other observations

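Several genes moved at least 2-fold without being called by edgeR, and were picked out after their values had been seen. Cdkn1a, a brake of the cell cycle, had 11.6, 27.3 and 88.0 CPM at CT20/CT44 and 3.41, 8.98 and 22.7 CPM at CT16/CT40 as the lowest, median and highest of 8 libraries (log2 1.74, SE 0.45, adjusted p = 0.066). Irs2, an adaptor of the insulin receptor, had 7.86, 12.9 and 43.0 CPM at CT20/CT44 and 0.575, 6.76 and 10.00 CPM at CT16/CT40 (log2 1.48, SE 0.42, adjusted p = 0.089). Alas1, the first enzyme of heme synthesis, had 211, 557 and 775 CPM at CT20/CT44 and 641, 1053 and 1649 CPM at CT16/CT40 (log2 -1.04, SE 0.30, adjusted p = 0.096). In all 3 the groups overlapped.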
